A study of Homo sapiens with 36 samples.

Results

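The 2 scramble control groups of the RNA-seq data were compared with each other: 3 libraries from the set made to study ALKBH5 and 3 from the set made to study RBM33, 6 of the 15 libraries in the deposited per-library table. Of 21797 listed genes, the 18227 with a mean of at least 1 CPM (read counts scaled by library size) over the 15 libraries were compared. All samples came from UM-SCC-1, an established cell line that derives from a squamous cell carcinoma of the head and neck. Cells of both groups were transduced with a retrovirus carrying a non-targeting scramble sequence and selected with 10 ug/mL blasticidin for 4 days, the same treatment that the shRNA cells received. Sample titles name shRNA, whereas the series design text speaks of siRNA. The 9 other libraries carry 1 of 2 shRNAs against ALKBH5, an RNA demethylase that removes N6-methyladenosine (m6A), or 1 of 2 against RBM33, an RNA-binding protein. The labels name 18 RNA-seq samples. ALKBH5 shRNA-1 replicate 3, ALKBH5 shRNA-2 replicate 2 and RBM33 shRNA-1 replicate 3 are not among the 15. Each shRNA group thus holds 2 or 3 libraries. After lysis in NP-40 detergent the RNA was sheared in a sonicator, and library preparation used the Takara SMARTer stranded total RNA pico kit, with sequencing on a NovaSeq 6000. The labels describe the scramble cells of both sets alike and record no culture, preparation or sequencing date, so the set and any batch between sets cannot be told apart. Nor do they say whether the replicates of a group were grown as separate cultures. The p-values thus rest on the scatter among the libraries at hand, and that scatter may be technical.

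A total RNA library holds RNA classes that a library selected for poly(A) tails would miss. Replication-dependent histone mRNAs end in a stem-loop in place of a poly(A) tail and are made mainly in S phase. 7SL RNA is the scaffold of the signal recognition particle, 7SK RNA holds the elongation factor P-TEFb in an inactive complex, and small nucleolar RNAs (snoRNAs), most of them cut from introns, guide chemical modification of ribosomal RNA. Ribosomal protein mRNAs are short, abundant and begin with a terminal oligopyrimidine tract, through which mTORC1 signalling controls their translation.

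One read was worth 0.1537 to 0.1885 CPM in the scramble libraries, which put their totals between 5066411 and 6495793 reads and the limit of detection (3 reads) between 0.461 and 0.5655 CPM. This limit covers counting error only. Across 18227 genes, Pearson correlations of log2(CPM + 1) between the 6 libraries were 0.979 to 0.985. Over genes of at least 20 CPM, the root mean square log2 distance was 0.26 to 0.288 for the 9 pairs that joined the 2 groups. It was 0.208 to 0.233 for pairs of ALKBH5-set scramble libraries and 0.181 to 0.207 for pairs of RBM33-set scramble libraries. No scramble library matched another within sampling noise. The deposited columns summed to different totals, which were 954042 to 992833 CPM in the ALKBH5 set and 1045915 to 1050515 CPM in the RBM33 set, a log2 ratio of means of -0.12.

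The labelled cell type was checked against marker genes before any comparison, and the markers went against it. Of 19 markers of basal squamous epithelium, 13 had a row in the table and 5 reached 10 CPM. KRT5, KRT14 and KRT17, the keratins of basal and activated keratinocytes, and TP63, the transcription factor that maintains squamous identity, had no row in the table used here. The authors' deposited DESeq2 tables set ALKBH5 shRNA-1 and RBM33 shRNA-1 each against its scramble. Their mean normalized counts pool knockdown and scramble libraries and are not CPM. These means were 3.67 and 0.521 for KRT5. Those of TP63 were 6.44 and 2.9, beside 1230 and 1170 for VIM. In the mean of the 6 scramble libraries, the stratifin gene SFN (0.5 CPM) lay near the limit of detection. The collagen XVII gene COL17A1 (1.1 CPM) and the E-cadherin gene CDH1 (2.64 CPM) were low but above that limit. The desmosomal plaque protein gene DSP was well above it at 190.6 CPM, and the simple-epithelium keratin genes KRT8 and KRT18 stood at 72.2 and 42.9 CPM.

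Mesenchymal markers were the more abundant group. VIM, which encodes the intermediate filament vimentin, reached 305 CPM or 58.9 CPM per kilobase, against a median of 3.8 CPM per kilobase over the 18227 genes. SNAI2 and ZEB1, repressors of epithelial genes, stood at 98 and 85.8 CPM. The summed level of the mesenchymal list was 674.9 to 730.1 CPM in the ALKBH5-set scramble libraries and 712.6 to 761.3 CPM in the RBM33-set ones, and that of the basal squamous list was 367 to 382.9 and 334 to 383.1 CPM. Keratinocyte differentiation markers summed to 35.1 to 41.3 and 31.5 to 32.5 CPM, with 4 of 16 listed. Leukocyte markers summed to 6.9 to 11.9 and 4.9 to 9.2 CPM, with none of the 12 at 10 CPM. For the neural and melanocyte list the sums were 109.7 to 135.2 and 125.5 to 131.7 CPM, among them the adhesion gene NCAM1 at 53 CPM. The epithelial list summed to 147.9 to 171.8 and 163.1 to 180.9 CPM, and the endothelial list to 28.4 to 31.1 and 34.6 to 43.5 CPM. These ranges overlapped between the groups except for the endothelial list, higher in the RBM33 set, and the differentiation list, higher in the ALKBH5 set. Each of these exceptions rested mainly on 1 gene, and neither gene was called. EGFL7 of the endothelial list averaged 24.9 CPM in the ALKBH5 set and 35.2 CPM in the RBM33 set (limma adjusted p = 0.0722). KRT10 of the differentiation list averaged 34.5 and 29.8 CPM (limma adjusted p = 0.475). Across all 9 lineage lists, 1 gene passed the test between the scramble groups, the melanosome matrix gene PMEL, at 0.69 to 6.95 CPM, which was called in 1 of 6 fits with a scramble library left out. The line is called UM-SCC-1 below because the labels do, without a cell type being read from these markers.

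**Figure D1:**
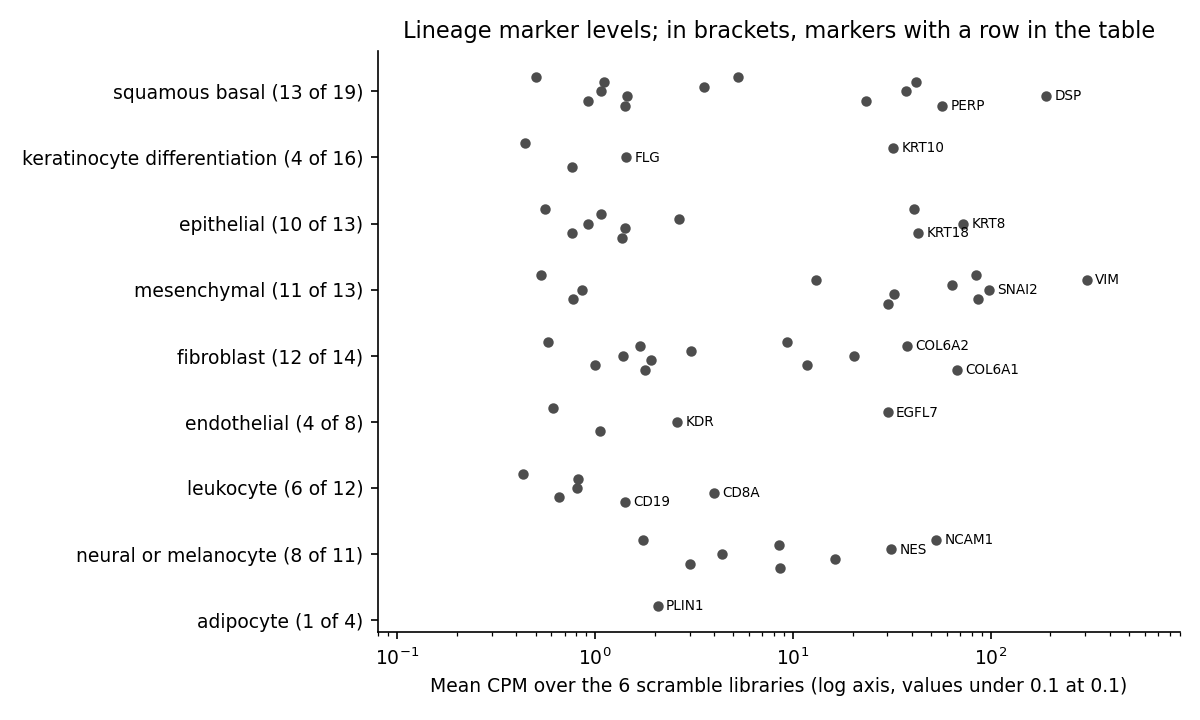
Mean CPM over the 6 scramble libraries (horizontal axis, log scale) of each lineage marker with a row in the table, with 1 point per gene, 1 row per marker list and the highest members named; brackets give the number of listed markers. VIM at 305 CPM and DSP at 190.6 CPM are the highest points, and the leukocyte markers stay at 3.99 CPM or less.

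HOX genes, which encode the transcription factors of body position, were expressed from all 4 clusters. HOXA had 8 of 11 listed genes at 10 CPM or more, HOXB 4 of 9, HOXC 5 of 9 and HOXD 3 of 8. The highest single members were HOXB9 at 77.1, HOXD13 at 53.6 and HOXD10 at 41.1 CPM.

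At baseline, 17907 genes averaged at least 1 CPM over the scramble libraries, 10812 at least 10, 1944 at least 100 and 77 at least 1000. Protein-coding genes took 78.3 to 84.4% of the summed CPM. Per kilobase, structured RNAs led. Of genes of at least 300 bases, the 7SL-derived RN7SL5P (20880 CPM per kilobase) and the 7SL gene RN7SL2 came first. The mitochondrial ribosomal RNAs MT-RNR2 (14400 CPM per kilobase) and MT-RNR1 followed. The 7SL gene RN7SL1, with 299 bases just outside this ranking, stood higher at 41350 CPM per kilobase. The linker histone genes H1-4 (6000 CPM per kilobase) and H1-2 were the highest nuclear protein-coding genes. Replication histones had a median of 397 CPM per kilobase over 40 tested genes, and cytosolic ribosomal proteins a median of 154 over 80, with RPS2 highest at 1430. MALAT1, a long noncoding RNA of nuclear speckles, stood at 7006 CPM (794 per kilobase). Histones took 1.9 to 2.07% of the summed CPM in the ALKBH5 set and 2.57 to 2.72% in the RBM33 set, and ribosomal proteins 4.44 to 4.58% and 5.35 to 5.62%.

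More genes were lower than higher in the ALKBH5-set scramble group compared with the RBM33-set one. The lower genes included 30 of 40 replication histone genes, 62 of 80 cytosolic ribosomal protein genes, 22 of 54 nuclear genes of oxidative phosphorylation, 23 of 232 snoRNAs, and some of the 7SL, 7SK, vault and Y RNA genes (5 of 20, 4 of 12, 1 of 3 and 3 of 12). With limma on log2(CPM + 1) and Benjamini-Hochberg adjustment over 18227 genes, 452 genes passed an adjusted p of 0.05, or 2.48% of those tested. Of these, 403 (2.21%) were lower and 49 (0.269%) were higher in the ALKBH5 set. Differences were mostly small: 39 of the 452 reached 2-fold, 33 lower and 6 higher, and the smallest absolute log2 difference among them was 0.25. The 6 that were 2-fold higher averaged 0.84 to 3.22 CPM. Without adjustment, 2586 genes had a p under 0.05. In 451 of the 452 the groups did not overlap, so a lack of overlap in a called gene below only describes its values. Of all 18227 genes, 2162 were lower in every ALKBH5-set scramble library than in every RBM33-set one.

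Both the number of genes and the split by direction depended on choices made before the test. The log2 difference of the median gene was 0.003 with the authors' scaling. When each library was scaled to the summed CPM of its listed genes, an alternative added after the data were seen, the median moved to 0.108 and 553 genes passed, 352 higher and 201 lower, of which 250 were among the 452. Directions below therefore hold with the authors' scaling, that is, against the typical gene. With 1 scramble library left out at a time, 241 to 330 genes passed (241 without RBM33 scramble replicate 1, 248 without ALKBH5 scramble replicate 3, 265 and 284 without RBM33 scramble replicates 2 and 3). In all 6 of these fits 177 of the 452 were called, 174 lower and 3 higher. edgeR's quasi-likelihood test on recovered reads also called all 177, but it used the same libraries and is not separate evidence.

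**Figure D2:**
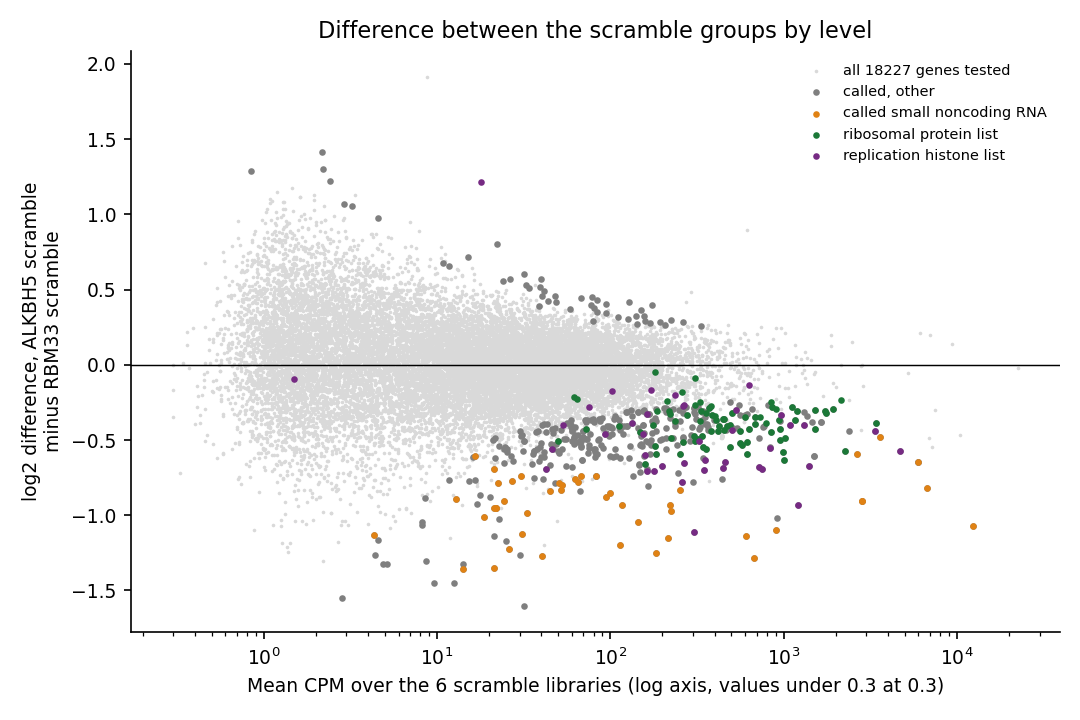
Difference between the scramble groups (ALKBH5 set minus RBM33 set, log2(CPM + 1), vertical axis) against the mean level in the 6 scramble libraries (horizontal axis, CPM, log scale), with 1 point per gene. Genes with an adjusted p under 0.05 are dark grey or, for small noncoding RNAs, orange, and all tested genes of the ribosomal protein and histone lists are green and purple; 403 of the 452 called genes lie below 0.

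Noncoding RNAs of defined structure had a median difference like that of the histone genes. The table lists 25 rows for this group, of which RMRP takes 2 with identical values. Of the 25, 9 were lower (RN7SK, RN7SL1, RN7SL2, RPPH1, TERC, RNY1, RNY3 and both RMRP rows), none was higher, and the median log2 difference was -0.48, against 0.003 over all genes. Summed over the group, the levels were 22340, 21120 and 22750 CPM in the ALKBH5-set scramble libraries and 36880, 41800 and 35340 CPM in the RBM33-set ones, with no overlap. In every fit with 1 scramble library left out, 5 of the 9 were called.

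RN7SL1 (chromosome 14, bases 49586580 to 49586878, hg38, plus strand) is one of the genes for 7SL RNA. It gave 6954, 7990 and 8835 CPM in the ALKBH5-set scramble libraries and 16584, 20094 and 13723 CPM in the RBM33-set ones. Every value of the first group lay below every value of the second. The log2 difference was -1.07 with a standard error of 0.14 (limma adjusted p = 5.17e-05). RN7SK (chromosome 6, 52995621 to 52995948, plus strand) gave 2097, 1999 and 1845 CPM against 3613, 3590 and 3946 CPM, again without overlap, a log2 difference of -0.91 (limma adjusted p = 2.27e-05). The 7SL and 7SK genes have many near-identical copies, so the split of reads among RN7SL1, RN7SL2, RN7SL5P, RN7SK and RN7SKP203 is uncertain, and the table gives the 7SK locus 2 rows with the same values. Summed over all 20 tested RN7SL genes, the levels were 20080, 21990 and 25910 CPM against 39680, 44640 and 35690 CPM. The families as a whole moved less than these abundant members. The median log2 difference was -0.18 over the 20 RN7SL genes (highest 0.52) and -0.03 over the 12 tested 7SK genes (highest 0.53). Both rows of the 7SK locus are among the 4 of 12 that were lower.

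Of the vault and Y RNAs, both products of RNA polymerase III, 1 of 3 tested VTRNA genes (median -0.49) and 3 of 12 tested Y RNA genes (median -0.98, highest 0.20) were lower. VTRNA1-3 (chromosome 5, 140726158 to 140726246, plus strand), a vault RNA of 89 bases, gave 71.3, 66.1 and 69.2 CPM in the ALKBH5-set scramble libraries and 157.4, 147.8 and 173.4 CPM in the RBM33-set ones. The replicates of each group were close together and far from the other group, and the log2 difference was -1.20 with a standard error of 0.10 (limma adjusted p = 1.58e-07). RNY1 and RNY3, Y RNAs bound by the Ro60 protein, had log2 differences of -0.97 and -1.15 (limma adjusted p = 0.0318 and 0.0379). Their levels varied more within the groups: RNY3 ran from 91.6 to 171.3 CPM in the ALKBH5 set and from 220.1 to 356.1 CPM in the RBM33 set. RNY1 was called in 1 and RNY3 in 2 of the 6 fits with a scramble library left out. RPPH1, the RNA of ribonuclease P, which trims transfer RNA precursors, had a log2 difference of -0.60. The telomerase RNA gene TERC was lower by -0.74 and RMRP, the RNA of ribonuclease MRP, by -0.38.

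Of 232 tested snoRNA genes, 23 (9.91%) were lower and none was higher, with a median of -0.35. Of 18 small Cajal body RNAs (scaRNAs), which guide modification of spliceosomal RNA, 6 (33.3%) were lower. Both shares lay above the 2.21% of all genes that were lower. By name, 18 of 107 SNORA genes, the H/ACA class that guides pseudouridylation, were lower (median -0.46), as were 4 of 111 SNORD genes, the C/D class that guides ribose methylation (median -0.32). The snoRNA class did not separate the groups as cleanly as the called members did. The class median, as a deviation from the mean of the 6 scramble libraries, was 0.10, -0.48 and -0.18 in the ALKBH5 set and 0.23, 0.38 and 0.06 in the RBM33 set, so ALKBH5 scramble replicate 1 lay within the range of the RBM33 set. Ribosomal RNA rows, left over after depletion, likewise varied by library: they took 4.32, 2.66 and 3.43% of the summed CPM in the ALKBH5 set and 4.23, 4.74 and 3.99% in the RBM33 set, and none of 26 passed the test.

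SNORD10 (chromosome 17, 7576811 to 7576952, plus strand) lies inside EIF4A1. It gave 424.2, 348.8 and 408.7 CPM in the ALKBH5-set scramble libraries and 863.8, 998.5 and 1023 CPM in the RBM33-set ones. No library of one group came near the other, and the log2 difference was -1.29 with a standard error of 0.15 (limma adjusted p = 2.03e-05). SCARNA21 (chromosome 17, 7906122 to 7906260, plus strand) inside the chromatin remodeller gene CHD3 gave 97.0, 108.8 and 120.6 CPM against 250.7, 264.1 and 262.7 CPM, a log2 difference of -1.25 (limma adjusted p = 2.03e-05). SNORD15B (chromosome 11, 75404421 to 75404566, plus strand) inside RPS3 gave 440.3, 372.3 and 335.5 CPM against 776.8, 880.7 and 859.3 CPM, a log2 difference of -1.14 (limma adjusted p = 1.86e-05). SNORA80D inside AIMP2, SNORA7A inside RPL32, SNORA27 inside RPL21 and SNORA63 inside EIF4A2 had log2 differences of -1.36, -1.27, -1.22 and -1.12. All 7 passed the test in every fit with 1 scramble library left out.

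Most snoRNAs lie inside a host gene on the same strand, and rows that overlap can hold the same reads, as the equal rows for 7SK show. Of the 232 tested, 218 lay inside a tested gene on the same strand, and so did 22 of the 23 that were lower. In 15 of those the surrounding gene was lower too. Of 69 snoRNAs inside genes that were lower, 54 did not pass, which does not show that they were unchanged. A link between the difference of a snoRNA and that of its surrounding gene was not tested. EIF4A1, the RNA helicase of the cap-binding complex, shows the overlap best. Its row gave 645.1, 559.5 and 617.4 CPM in the ALKBH5 set and 1118, 1273 and 1301 CPM in the RBM33 set, a log2 difference of -1.02 (limma adjusted p = 2.03e-05). With the 3 small RNA rows inside it subtracted (SNORA48, SNORD10 and SNORA67), 173.1, 174.1 and 171.5 CPM remained against 194.5, 201 and 208.3 CPM, a log2 difference of -0.22. The groups still did not overlap, at a smaller distance than with the snoRNA rows included.

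**Figure D3:**
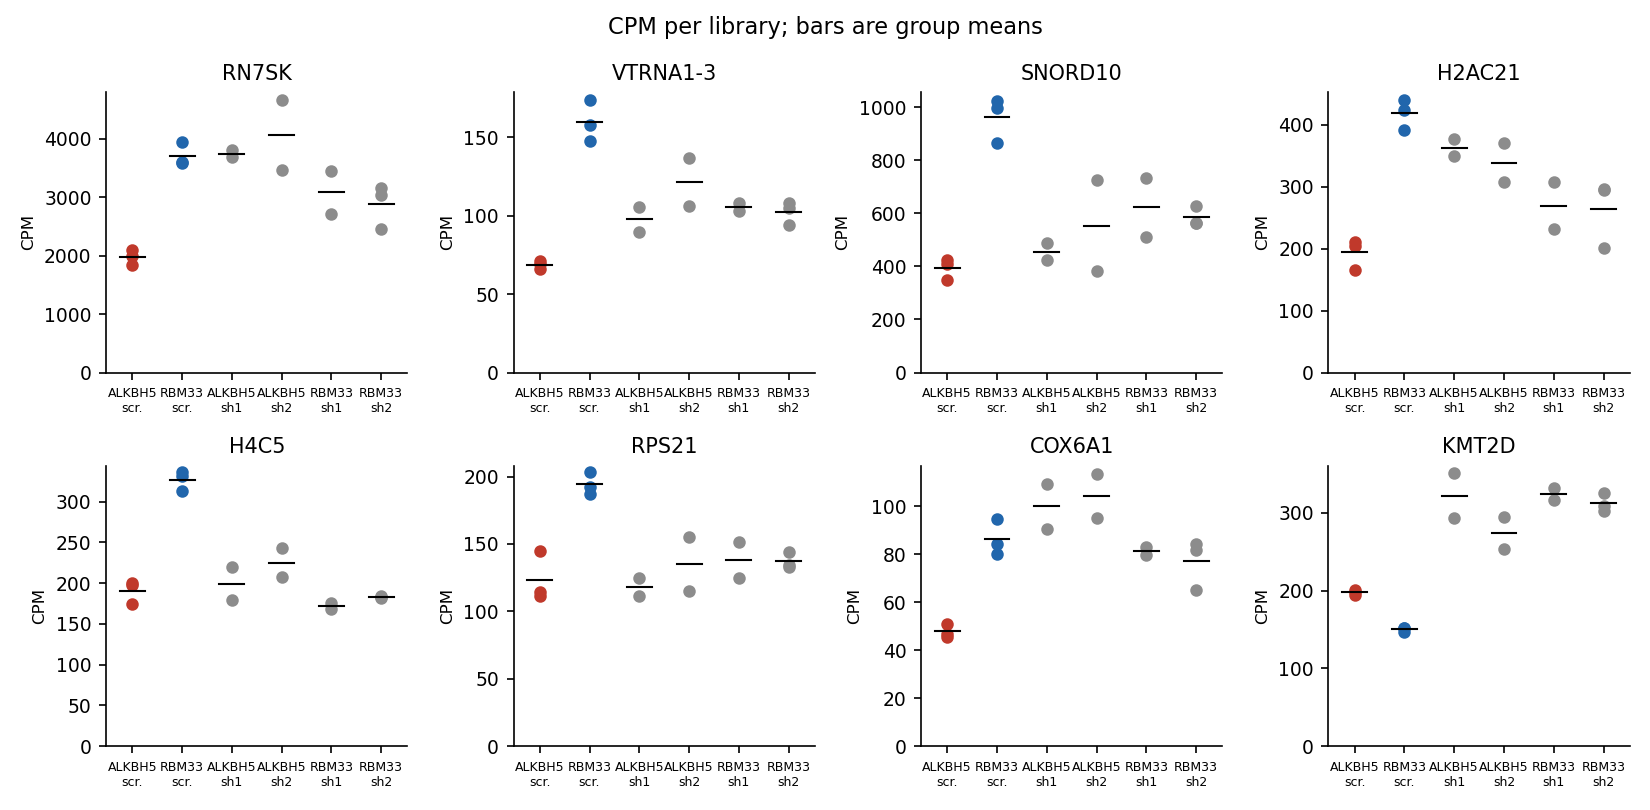
CPM of 8 genes (vertical axes, each starting at 0) in the 15 libraries, with 1 point per library and a bar at the group mean, in red for the ALKBH5-set scramble group, blue for the RBM33-set one and grey for the shRNA groups. The 2 scramble groups form separate clusters in each panel, such as 66.1 to 71.3 against 147.8 to 173.4 CPM for VTRNA1-3, and KMT2D runs the other way.

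Replication-dependent histone genes were lower as a family. The list held 40 tested genes, of which 30 were lower, none was higher and 39 had a negative difference, with a median of -0.48. Their summed level was 18840, 19760 and 18670 CPM in the ALKBH5-set scramble libraries and 28430, 27040 and 27230 CPM in the RBM33-set ones. All 5 histone types took part. All 3 linker H1 genes were lower (median -0.44), as were 9 of 11 H2A genes (-0.65), 7 of 11 H2B genes (-0.34), 5 of 6 H3 genes (-0.68) and 6 of 9 H4 genes (-0.60). Medians of the family by library, as deviations from the mean of the 6 scramble libraries, were -0.27, -0.27 and -0.24 in the ALKBH5 set and 0.25, 0.22 and 0.28 in the RBM33 set. The call held in every fit with 1 scramble library left out for 20 of the 30. Genes of DNA replication, the other S-phase list, had a median of -0.11, and none of 29 passed. Of 11 histone variant genes with polyadenylated mRNAs 2 were lower, H3-3B (-0.32) and H2AZ1 (-0.30), each lost in all 6 fits with a library left out. Histone genes of a type are similar in sequence, so values of single genes are less certain than the sums.

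Among single histone genes, H2AC21 (chromosome 1, 149887469 to 149887965, minus strand), an H2A gene, gave 165.5, 211.1 and 204.5 CPM in the ALKBH5-set scramble libraries and 438.9, 391.2 and 424.0 CPM in the RBM33-set ones. This was the largest difference among the called members, a log2 value of -1.11 with a standard error of 0.12 (limma adjusted p = 1.33e-05). H2AC11, also an H2A gene, gave 708.3, 905.9 and 881.3 CPM against 1663, 1580 and 1495 CPM, a log2 difference of -0.93 (limma adjusted p = 5.17e-05). H4C5 (chromosome 6, 26204552 to 26206038, plus strand), an H4 gene, gave 197.2, 174.6 and 200.4 CPM against 313.4, 332.0 and 335.9 CPM, a log2 difference of -0.78 (limma adjusted p = 7.17e-06). H1-4, the most abundant of all, gave 3516, 4403 and 3474 CPM against 6284, 5573 and 5078 CPM. Its groups were nearer each other, with a log2 difference of -0.57 and a standard error of 0.10 (limma adjusted p = 0.00206). H3C2 and H2AC4 had differences of -0.67 and -0.70.

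Because these histone genes moved together, the 90 bases before their RefSeq start sites (GRCh38.p14) are shown for 4 of them, 5′ to 3′ on the gene strand, with capitals marking CCAAT and TATAAA on either strand, the usual letters of the CCAAT box and the TATA box. Their positions are chr1:149887966-149888055 on the minus strand for H2AC21, and chr6:27132953-27133042, chr6:26204520-26204609 and chr6:26156239-26156328 on the plus strand for H2AC11, H4C5 and H1-4.
H2AC21: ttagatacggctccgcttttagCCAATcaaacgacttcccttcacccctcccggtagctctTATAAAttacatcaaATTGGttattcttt
H2AC11: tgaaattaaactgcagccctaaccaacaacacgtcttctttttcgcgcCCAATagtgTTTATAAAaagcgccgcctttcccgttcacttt
H4C5: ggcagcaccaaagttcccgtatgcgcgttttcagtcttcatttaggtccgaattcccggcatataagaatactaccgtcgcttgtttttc
H1-4: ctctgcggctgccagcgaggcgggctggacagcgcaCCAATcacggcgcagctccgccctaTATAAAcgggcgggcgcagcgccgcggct
CCAAT stood in this window in 29 of 36 tested histone genes with a RefSeq entry (80.6%), in 20.3% of the 11436 tested genes matched and in 17.1% of all 27305 RefSeq promoters. TATAAA stood in 23 of 36 (63.9%), in 2.6% and in 5.03%. Among the 27 matched histone genes that were lower, the shares were 81.5% and 74.1%. A link between these strings and the difference was not tested. H4C5 has neither string in this window. In H2AC11 the 2 strands' TATAAA matches overlap.

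Cytosolic ribosomal protein genes moved as uniformly. All 80 tested genes had a negative difference, from -0.66 to -0.05, with a median of -0.39, and 62 were lower by the test. Their summed level was 44540, 43690 and 42430 CPM in the ALKBH5-set scramble libraries and 56000, 56170 and 58930 CPM in the RBM33-set ones. Both subunits contributed: 27 of 32 genes of the small subunit (median -0.38) and 35 of 48 of the large subunit (median -0.39) were lower. With 1 scramble library left out in turn, 36 of the 62 were called in all 6 fits, and scaled to the total of listed genes 38 were lower, with a median of -0.27. Ribosomal protein genes that hold a snoRNA or scaRNA row on their strand had nearly the same median (-0.39, 25 of 28 lower) as those that hold none (-0.37, 37 of 52 lower).

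RPS21 (chromosome 20, 62387103 to 62388520, plus strand), a protein of the small subunit, gave 144.8, 111.3 and 114.6 CPM in the ALKBH5-set scramble libraries and 187.0, 192.5 and 203.6 CPM in the RBM33-set ones. The groups did not overlap, and the log2 difference of -0.66 with a standard error of 0.11 was the largest of the family (limma adjusted p = 7.86e-04). RPL35, of the large subunit, gave 714.1, 853.8 and 798.9 CPM against 1154, 1217 and 1293 CPM, a log2 difference of -0.63 (limma adjusted p = 0.00121), and RPL27 had a difference of -0.59.

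Start sites of 3 ribosomal protein genes and of the elongation factor gene EEF1A1 are shown from RefSeq (GRCh38.p14), from 10 bases before to 20 after, because mRNAs of this class are known for a pyrimidine tract at their start. Capitals mark CTTT on the gene strand, wherever in the window it lies. In RPL27 it lies near the window's end and not at the RefSeq start, where the letters are mostly purines. The windows are chr20:62387093-62387122 (plus) for RPS21, chr9:124861938-124861967 (minus) for RPL35, chr17:42998409-42998438 (plus) for RPL27 and chr6:73521013-73521042 (minus) for EEF1A1.
RPS21: ctagctgcttcCTTTctctctcgcgcgcgg
RPL35: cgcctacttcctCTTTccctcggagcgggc
RPL27: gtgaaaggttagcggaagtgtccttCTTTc
EEF1A1: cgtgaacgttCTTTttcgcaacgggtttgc
CTTT stood in this window in 43 of 64 tested ribosomal protein genes with an entry (67.2%), against 10.3% of the 11436 tested genes matched and 12.1% of all RefSeq promoters. The share was 66.0% among the 47 matched ribosomal protein genes that were lower and 70.6% among the 17 that did not pass. Those that did not pass also had negative differences, and a link between this string and the difference was not tested.

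Translation factors, which work on the ribosome but are longer and less uniform, moved less. Of 34 tested, 6 were lower and none was higher, with a median of -0.14. The 6 were EIF4A1, described above, EIF3I (-0.28), EIF5A (-0.25), and the elongation factor genes EEF1A1, EEF1B2 and EEF1G. For EIF4A1 the difference was -0.22 once the small RNA rows inside it were subtracted. EEF1A1, which delivers aminoacyl-tRNA, gave 2086, 2110 and 1868 CPM in the ALKBH5-set scramble libraries and 2754, 2661 and 2802 CPM in the RBM33-set ones, a log2 difference of -0.44 (limma adjusted p = 0.00198). EEF1B2 and EEF1G, subunits of its exchange factor, had differences of -0.42 and -0.41. Of the 6, 3 were called in every fit with 1 scramble library left out. Scaled to the total of listed genes, 3 of the list were lower and 1 was higher, with a median of -0.02.

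Nuclear genes of oxidative phosphorylation were lower in part, and no mitochondrially encoded gene was called. All 54 tested nuclear genes had a negative difference, 22 passed, and the median was -0.36. Their sums were 4591, 4679 and 4392 CPM against 5753, 5734 and 5977 CPM. By complex, 6 of 19 genes of complex I (median -0.41), none of 4 of complex II (-0.21), 6 of 8 of complex III (-0.49), 3 of 10 of complex IV (-0.32) and 7 of 12 of complex V (-0.38) were lower. COX6A1 (chromosome 12, 120438090 to 120440737, plus strand), a subunit of cytochrome c oxidase, gave 45.6, 51.0 and 46.8 CPM in the ALKBH5-set scramble libraries and 94.4, 84.1 and 80.1 CPM in the RBM33-set ones. The groups were well apart, with a log2 difference of -0.84 and a standard error of 0.11 (limma adjusted p = 5.17e-05). The call held without any 1 scramble library for 10 of the 22, and with libraries scaled to the total of listed genes 12 were lower, with a median of -0.25. UQCRQ of complex III, ATP5ME of the ATP synthase and COX5B of complex IV had differences of -0.74, -0.71 and -0.69. The 15 mitochondrially encoded genes, which include the ribosomal RNAs MT-RNR1 and MT-RNR2, had a median of 0.06 and none passed, and without ALKBH5 scramble replicate 1 the median was -0.12. Their sums, 63280, 40710 and 48300 CPM against 50220, 51680 and 45520 CPM, were spread by replicate 1 of the ALKBH5 set, and the test of nuclear against mitochondrial genes itself was not run.

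Mitochondrial ribosomal proteins and proteasome subunits showed the same direction at a smaller size. Of 58 mitochondrial ribosomal protein genes, 9 were lower (median -0.27), 8 of them among the 38 of the large subunit. MRPL14, MRPL20, MRPL12 and MRPS23 had differences of -0.58, -0.56, -0.55 and -0.55, and 2 of the 9 were called in every fit with 1 scramble library left out. MRPL14 was called in 1 of these 6 fits. It gave 19.88, 19.67 and 19.98 CPM in the ALKBH5 set and 39.60, 28.46 and 24.36 CPM in the RBM33 set, where replicate 1 stood apart. Of 31 proteasome genes, 7 were lower (median -0.22). They included 5 of the 14 genes of the catalytic core (PSMA and PSMB, median -0.35) and 2 of the 17 of the regulatory particle (PSMC and PSMD, median -0.19). PSMB3 gave 35.8, 26.3 and 28.7 CPM against 52.7, 41.9 and 47.9 CPM, a log2 difference of -0.64, and PSMB7 one of -0.51. In all 6 fits with a library left out, 1 of the 7 was called. Scaled to the total of listed genes, 3 mitochondrial ribosomal protein genes (median -0.16) and 2 proteasome genes (median -0.10) were lower.

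A few glycolytic enzymes and single members of other lists were also lower. Of 34 genes of the hypoxia and glycolysis list, 6 were lower and none was higher, with a median of -0.10, which became 0.02, with 1 lower, when libraries were scaled to the total of listed genes. GAPDH gave 1209, 1319 and 1288 CPM in the ALKBH5-set scramble libraries and 1638, 1661 and 1662 CPM in the RBM33-set ones. Replicates of the RBM33 set differed by less than the gap to the other group, and the log2 difference was -0.38 (limma adjusted p = 0.00573). TPI1, PGAM1 and ENO1, enzymes of the same pathway, had differences of -0.49, -0.33 and -0.31. GAPDH and TPI1 were called in every fit with 1 scramble library left out, PGAM1 in 2 and ENO1 in 4 of the 6. Scaled to the total of listed genes, TPI1 kept its call and GAPDH, PGAM1 and ENO1 did not. Of the 8 genes of the CCT chaperonin, which folds actin and tubulin, CCT7 (-0.40) and CCT5 (-0.34) were lower. LAMTOR4 and LAMTOR2, small Ragulator subunits that tether mTORC1 to the lysosome, had differences of -0.75 and -0.61. FTL, the ferritin light chain, and SQSTM1, the autophagy receptor p62, both had one of -0.37. Their lists held few calls, with 2 lower of 33 mTORC1 regulators (LAMTOR4 and LAMTOR2), 1 of 33 autophagy and lysosome genes (SQSTM1) and 1 of 21 NRF2 targets (FTL). FTL was lost without RBM33 scramble replicate 1, and SQSTM1 was called in 1 of the 6 fits with a library left out. Scaled to the total of listed genes, CCT7, LAMTOR4 and LAMTOR2 were called and CCT5, FTL and SQSTM1 were not.

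Lists of stress, signalling and cell cycle genes held few calls. None passed among 20 heat shock genes (median -0.05), 26 immediate early genes (-0.08), 25 genes of cholesterol synthesis (-0.14), 27 targets of p53 (-0.03), 34 splicing factors of the SR and hnRNP families (0.05) or 23 mRNA export genes (-0.09). Of 22 genes of the unfolded protein response 1 was lower, XBP1 (-0.37), its central transcription factor. Of 34 genes of the ATF4 response, PHGDH (-0.34), the first enzyme of serine synthesis, and SLC3A2 (-0.29) were lower and SLC7A11 (0.29) was higher. SLC3A2 and SLC7A11 encode the 2 chains of the cystine importer, so its subunits differed in opposite directions. Among 27 mitosis genes the kinetochore motor gene CENPE (0.30) was higher and the ubiquitin-conjugating enzyme gene UBE2C (-0.40) was lower. Scaled to the total of listed genes, 6 mitosis, 3 splicing factor, 3 mRNA export genes and 1 p53 target were higher, while XBP1, PHGDH, SLC3A2 and UBE2C were not called. With a scramble library left out, CENPE, UBE2C, SLC3A2 and SLC7A11 were called in none of the 6 fits, and XBP1 and PHGDH in 1.

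**Figure D4:**
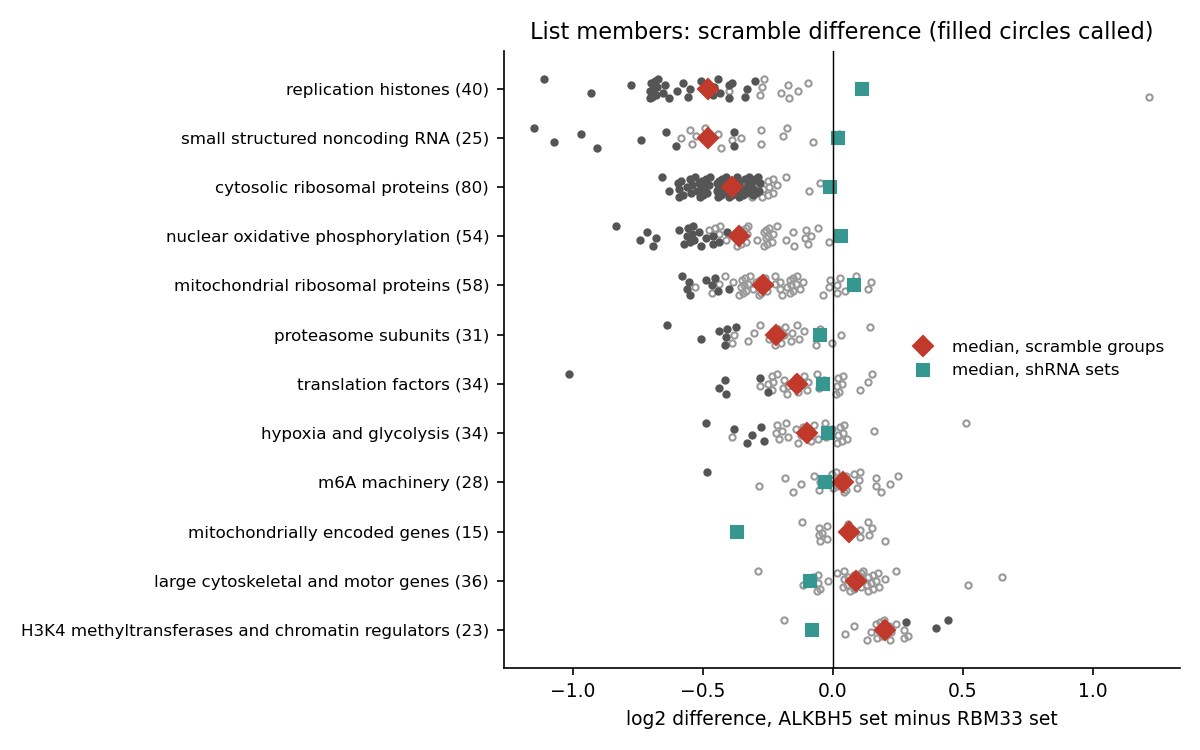
Difference between the scramble groups (ALKBH5 set minus RBM33 set, log2(CPM + 1), horizontal axis) for every tested member of 12 gene lists (vertical axis, number of members in brackets), with filled circles for an adjusted p under 0.05 and open circles for the rest. Red diamonds give the list medians, from -0.48 for replication histones to 0.20 for H3K4 and chromatin regulators, and green squares the medians of the same lists between the shRNA sets.

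Of the 49 genes that were higher in the ALKBH5-set scramble group, 21 were in the longest of 10 equal bins of gene length. KMT2D (chromosome 12, 49018978 to 49060794, minus strand), which encodes a histone H3 lysine 4 methyltransferase acting at enhancers, gave 194.8, 201.0 and 198.7 CPM in the ALKBH5 set and 151.8, 152.2 and 147.2 CPM in the RBM33 set. Replicates agreed to within a few CPM, and the log2 difference was 0.40 with a standard error of 0.08 (limma adjusted p = 0.00391). KMT2D, the splicing-associated protein gene YLPM1 (0.37) and the nuclear pore complex interacting family gene NPIPB5 (0.43), whose near-identical copies make its value uncertain, were the 3 called in every fit with 1 scramble library left out. UVSSA, a factor of transcription-coupled repair, gave 39.8, 35.2 and 40.5 CPM against 21.8, 25.1 and 28.5 CPM. Its log2 difference of 0.60 (limma adjusted p = 0.00806) was lost without ALKBH5 scramble replicate 3 or RBM33 scramble replicate 1. SPG11 (0.57), needed for lysosome renewal, the methylcytosine dioxygenase gene TET3 (0.49) and the H3K27 demethylase gene KDM6B (0.44) were also higher. They were called in 4, 1 and 2 of the 6 fits with a library left out. With the gene length trend removed, KMT2D fell to 0.25 (limma adjusted p = 0.10) and TET3 to 0.40 (limma adjusted p = 0.12), and neither was called.

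Chromatin regulators as a list leaned the same way. Of 23 tested genes of H3K4 methylation and chromatin control, 3 were higher (KMT2D, KDM6B and KMT2C, the last by 0.28), none was lower, and 22 had a positive difference, with a median of 0.20. KMT2A, EP300 and CREBBP, which did not pass, had differences of 0.18, 0.20 and 0.22. These genes are long, with a median of 15516 bases. With the gene length trend removed the median was 0.10, with 1 higher and 1 lower, and scaled to the total of listed genes it was 0.31, with 15 higher. Large cytoskeletal and motor genes, of similar length, had a median of 0.09 with none of 36 called, and scaled to the total 5 were higher.

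The genes under study in the 2 sets did not differ detectably between their scramble controls. ALKBH5 gave 108.8, 131.7 and 123.3 CPM in its own set's scramble libraries and 118.5, 117.9 and 113.8 CPM in those of the RBM33 set. These ranges overlap, and the log2 difference was 0.05 with a standard error of 0.09 (limma adjusted p = 0.86). RBM33 gave 232.0, 230.8 and 226.8 CPM against 217.1, 207.2 and 227.1 CPM, with a log2 difference of 0.08 (limma adjusted p = 0.638). Among 28 genes of the m6A machinery 1 passed, METTL5 (-0.48, limma adjusted p = 0.0283), a methyltransferase of ribosomal RNA, called in 1 of the 6 fits with a scramble library left out. The other demethylase FTO and the mRNA methyltransferase subunits METTL3 and METTL14 had differences of -0.07, -0.19 and -0.05. The median of the list was 0.04, and scaled to the total of listed genes it was 0.16, with 3 higher and none lower.

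The shRNA libraries of the 2 sets were compared with the same fit, as a measure of how far the sets differed apart from the scramble cells. Here 55 genes passed (0.302%), 16 higher (0.0878%) and 39 lower (0.214%) in the ALKBH5 set, and 11 of them were among the 452. The medians of the same lists were -0.01 for cytosolic ribosomal proteins, 0.03 for nuclear oxidative phosphorylation, 0.11 for replication histones, 0.02 for structured noncoding RNAs and -0.08 for H3K4 and chromatin regulators. Of the 40 histone genes, 5 were higher and 2 lower between the shRNA sets. Knockdown of different genes is part of this contrast, so it is not a comparison of equal cells. The interaction test asked whether the scramble difference itself differed from the shRNA difference. It passed for 491 genes (2.69%), 366 negative (2.01%) and 125 positive (0.686%), and 289 of the 452 were among them. By list, the interaction was negative for 41 of 80 ribosomal protein genes, 25 of 40 histone genes, 18 of 54 nuclear oxidative phosphorylation genes and 8 of 25 structured RNA rows. These 2 contrasts share no libraries, but the interaction is built from both.

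Levels in the shRNA libraries are given beside those of the scramble groups as a description, since scramble and shRNA libraries were farther apart (0.316 to 0.401 by the root mean square log2 distance) than the 2 scramble groups. For ribosomal proteins, the list median as a deviation from the mean of the scramble libraries was -0.14, -0.19 and -0.25 in the ALKBH5-set scramble group, 0.18, 0.17 and 0.23 in the RBM33-set one, and -0.04 to 0.20 in the 9 shRNA libraries. All shRNA libraries thus lay above the ALKBH5-set scramble group. For histones the shRNA libraries lay at -0.48 to -0.07, beside the ALKBH5-set scramble values of -0.27, -0.27 and -0.24 and below the RBM33-set values of 0.25, 0.22 and 0.28. COX6A1 gave 64.9 to 113.5 CPM in the shRNA libraries, above all 3 ALKBH5-set scramble values, and VTRNA1-3 gave 89.7 to 136.8 CPM, between the scramble groups. KMT2D gave 253.1 to 350.8 CPM, above both scramble groups. The scramble level against which each set's own shRNAs are read thus differed between the sets for these genes.

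The difference between the scramble groups followed gene length. Here length is the summed exon length in the deposited table. Across 10 equal bins of the 18227 genes from short to long, the median log2 difference went from -0.11 (median length 481 bases) through -0.09, -0.07, -0.06, -0.03, -0.01, 0.02, 0.05 and 0.07 to 0.11 (median length 13636 bases). Calls followed it: 6.47% of the shortest bin passed, 118 lower and none higher, and 1.37% of the longest, 4 lower and 21 higher. Across genes, which are not independent replicates, the Pearson correlation of the difference with log2 length was 0.24 and Spearman's rho 0.25. Among 13783 protein-coding genes these were 0.34 and 0.36. For the difference between the shRNA sets the Pearson values were -0.09 and -0.14.

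A value per library gives the trend with its spread. The mean log2(CPM + 1) of the shortest 20% of genes minus that of the longest 20% was -2.07, -2.20 and -2.13 in the ALKBH5-set scramble libraries (mean -2.13, SD 0.07, n = 3) and -1.93, -1.92 and -1.99 in the RBM33-set ones (mean -1.95, SD 0.04, n = 3). The groups did not overlap, and the difference of -0.18 was larger than the pooled SD of 0.054. The two-sided exact permutation p was 0.1, the smallest that 3 against 3 libraries can give. The 9 shRNA libraries ran from -2.19 to -1.97, with the highest of them just above the lowest RBM33-set value. In protein-coding genes alone the values were -1.17, -1.15 and -1.16 against -0.92, -0.94 and -0.93, and the shRNA libraries had -1.16 to -1.0. The shortest of the 10 bins was the least even: its median deviation was 0.05, -0.18 and -0.06 in the ALKBH5 set and 0.09, 0.13 and 0.00 in the RBM33 set, so ALKBH5 scramble replicate 1 lay among the RBM33-set values there.

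The lists were also compared apart from the length trend. With a smooth length trend removed from each library, 336 genes passed, 313 lower and 23 higher, and 297 of them were among the 452. The ribosomal protein median went from -0.39 to -0.34 with 52 lower, the histone median from -0.48 to -0.40 with 24 lower, the nuclear oxidative phosphorylation median from -0.36 to -0.31 with 16 lower, and the structured RNA median from -0.48 to -0.30 with 7 lower. The direction of these 4 medians did not change. Named genes no longer called with the trend removed included KMT2D, KMT2C, TET3, CENPE, SLC7A11, H2AZ1, METTL5, MRPL14, PGAM1, PMEL, SLC3A2, UBE2C and XBP1. RMRP did not keep its call in all of its rows. Without the histone and ribosomal lists, the contrast of short with long protein-coding genes was -0.22, close to the -0.23 with them.

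**Figure D5:**
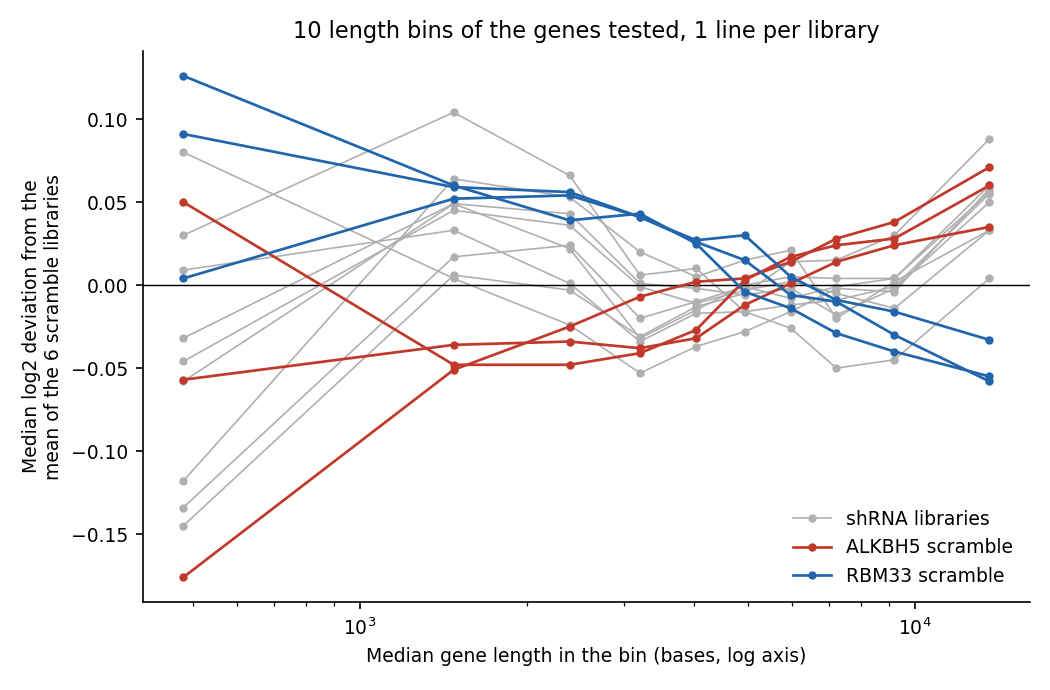
Median deviation from the mean of the 6 scramble libraries (vertical axis, log2) in 10 bins of gene length (horizontal axis, median length in bases, log scale), with 1 line per library, in red for the ALKBH5-set scramble group, blue for the RBM33-set one and grey for the shRNA libraries. In the longest bin the red lines lie at 0.04 to 0.07 and the blue lines at -0.06 to -0.03, and in the second shortest bin the order is reversed, while in the shortest bin the colours mix.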

How the data were processed

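RNA-seq of 6 scramble libraries was analysed in a fit over all 15 libraries of the deposited table. The submitters' processing notes name cutadapt 1.18, HISAT2 2.1.0, hg38, featureCounts of Subread 1.6.4, edgeR 3.24.3 and DESeq2. The values were deposited by the authors as a signal, CPM of a normalized library size. The authors' deposited DESeq2 tables give a further signal, the mean normalized count per gene. Values were whole multiples of 1 read within 0.1 read, so reads were recovered for count-based alternatives. The number of columns of other samples was 0.

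Tests covered genes averaging 1 CPM or more, with limma 3.58.1 (R 4.3.3) on log2(CPM + 1), with a mean-variance trend, 6 group means and Benjamini-Hochberg adjustment; a fold change on this scale understates that of low genes. Alternatives used edgeR 4.0.16, DESeq2 1.42.0, other pseudocounts, filters and scalings, a length trend removal and left-out libraries. The statistics were tested on simulated data. Sequences came from RefSeq tables.

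The members and lists were chosen with earlier results of these data known. Named genes were the 12 largest differences per direction among called genes of at least 10 CPM whose groups did not overlap, up to 4 called genes per list, the longest and shortest called genes, the most abundant genes and markers, and ALKBH5, RBM33, FTO, METTL3 and METTL14. Genes named besides these, such as YLPM1, NPIPB5, TERC, RMRP, EIF3I, EIF5A, HOX members, KMT2A, EP300 and CREBBP, were chosen after their values were seen. A named gene is not reported here.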

Additional observations from a re-analysis of the deposited data

Results flagged for a closer look

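The difference between the scramble groups was not the same as the difference between the shRNA libraries of the 2 sets for 69 of the 128 named genes, by the limma interaction test with adjusted p from 3.61e-06 to 0.0483. The values in parentheses are the scramble difference minus the shRNA difference on the log2 scale: 57 were negative and 12 positive. The test passed for 2.69% of all genes, but most named genes were chosen for their scramble difference, which is part of this value, so the count among them is a description. Outlying replicates were not looked for by a test, since each scramble group has 3 libraries.

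Of the structured and small RNAs, the negative values were those of Y_RNA (-2.35), MT-TD (-1.79), SCARNA21 (-1.70), RNY3 (-1.60), RNY1 (-1.46), SNORA80D (-1.44), SNORA7A (-1.34), RN7SK (-1.30), 7SK (-1.30), VTRNA1-3 (-1.26), RN7SKP203 (-1.07), SNORD10 (-1.0), SNORD15B (-0.95), RN7SL1 (-0.81), RN7SL5P (-0.78), RN7SL2 (-0.73), AL627171.2 (-0.73) and RPPH1 (-0.64). The rows RN7SK and 7SK hold the same reads. RN7SL2 lies inside AL627171.2, and the values of these rows were nearly equal (4265.67 and 4269.1 CPM in ALKBH5 scramble replicate 1). Of the histone genes the negative values were those of H2AC21 (-1.52), H2AC11 (-1.27), H3C2 (-1.03), H4C5 (-1.03), H2AC4 (-1.02), H1-4 (-0.73), H1-2 (-0.55) and H3-3B (-0.55).

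Of the genes of ribosomes and translation, the values were those of RPL27 (-0.86), RPL35 (-0.81), RPS21 (-0.53), EIF4A1 (-0.81), EEF1B2 (-0.54), EEF1A1 (-0.51), EEF1G (-0.45), MRPL20 (-1.05), MRPL14 (-0.76), MRPS23 (-0.73) and MRPL12 (-0.61). Of respiration, glycolysis and the proteasome they were COX6A1 (-1.20), UQCRQ (-0.99), ATP5ME (-0.65), COX5B (-0.63), TPI1 (-0.64), GAPDH (-0.54), ENO1 (-0.43), PGAM1 (-0.36) and PSMB6 (-0.53). The chaperonin genes CCT7 (-0.53) and CCT5 (-0.39) and the Ragulator genes LAMTOR4 (-0.96) and LAMTOR2 (-0.91) were negative too. The EIF4A1 value is that of its whole row, which includes the span of 3 small RNA rows. With those rows subtracted its scramble difference was -0.22, and the interaction was not tested.

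The other negative values belonged to CDR1 (-1.71), FTL (-0.51), GADD45B (-1.17), PMEL (-2.23), SQSTM1 (-0.51), UBE2C (-0.75) and XBP1 (-0.81). The 12 positive values belonged to ALKBH5 (0.47), CENPE (0.56), CPLANE1 (0.44), KMT2C (0.36), KMT2D (0.50), PEAK1 (0.58), SHTN1 (0.51), SLC7A11 (0.43), SPG11 (0.66), TRIM66 (0.58), UVSSA (0.64) and ZNF618 (0.79). For ALKBH5 the shRNAs of one set target the gene itself.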

How the results depend on the processing

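The 452 calls between the scramble groups became 276 with a replicate block and the gene length trend removed, 364 with the block alone and 241 to 330 without 1 scramble library. edgeR gave 442, a fit over the 6 scramble libraries alone 625, protein-coding genes alone, added after the data were seen, 498, and DESeq2 621 (134 higher, 487 lower). For the shRNA sets, 55 became 24 with the block, 205 with DESeq2 and 3 to 99 with 1 library left out. For the interaction, 491 became 319 with the length trend removed, 261 with the block as well, and 266 to 579 with 1 library left out. Scaling to the total of listed genes gave 51 (35 higher, 16 lower) for the shRNA sets and 528 (263 and 265) for the interaction. The length contrast of -0.18 became -0.11 when the genes were divided at the median length and -0.28 with a minimum of 5 CPM, and -0.21 to -0.15 with 1 library left out, each with an exact p of 0.1. Replicate numbers did not pair the libraries. Deviations of same-numbered scramble libraries correlated at -0.03, -0.18 and -0.13, and no scramble library correlated best with its own number. Of 2415 values of named genes under alternatives, 2078 stayed on their side of the threshold, 334 no longer passed, 3 newly passed and 0 called differences changed sign, while small differences that were not called, such as those of ALKBH5, RBM33 and METTL14, did. The causes of these changes were not tested. With 3 libraries a group, no exact test can go under 0.1.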

Other observations

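Across all genes tested, 3 varied widely among replicates of a scramble group, by a rule set after their values were seen (a highest value of at least 20 CPM and a ratio of at least 8 between libraries of a group). H2BC9, an H2B histone gene, gave 41.6, 28.6 and 0.38 CPM in the ALKBH5-set scramble libraries and 0.32, 1.94 and 34.6 CPM in the RBM33-set ones, and 0.38 to 58.5 CPM in the shRNA libraries. Inside both groups the level was thus either 1.94 CPM or less or 28.6 CPM or more, and its log2 difference of 1.22 had a standard error of 1.2. RNA5SP94, a 5S ribosomal RNA pseudogene, gave 52.2 CPM in ALKBH5 scramble replicate 3 and 0 in the 14 other libraries. FP671120.4 gave 43.8 CPM in RBM33 scramble replicate 1 and 2.73 to 7.07 CPM in the others.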
